A study of Mus musculus with 7 samples.

Results

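The nuclear genes for the subunits of the mitochondrial respiratory chain were followed on arrays labelled as sorted mouse dermal sheath cells with and without β-catenin activation. The members are the genes whose symbols begin with Ndufa, Ndufb, Ndufc, Ndufs, Ndufv, Uqcr, Cox4, Cox5, Cox6, Cox7, Cox8 or Atp5, together with Sdha to Sdhd, while the Ndufaf assembly factors were left out. RefSeq holds 88 protein-coding genes of these names, and 85 of them had a probe, out of 21154 genes named on the array. These were 38 genes of complex I, 4 of complex II, 8 of complex III, 18 of complex IV and 17 of complex V. Ndufb1, Ndufb4b and Ndufb4c had none. Of the 85 genes, 84 passed the filter on dim probes (signal well above background on 3 or more of the 7 arrays) and were tested, and 83 were above background on all 7 arrays. The remaining gene, Cox7b2, was above background on 0 of 3 control and 2 of 4 activation arrays and was not tested.

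Each array held RNA from YFP-positive cells of the dorsal skin at postnatal day 15 that were negative for CD34, alkaline phosphatase (ALP) and integrin α8 (ITGα8). The 3 control arrays came from 4 mice, with 2 mice pooled on control array 3. The 4 activation arrays came from 6 mice of the genotype cΔex3, the labels' name for β-catenin activation, with 2 mice pooled on each of activation arrays 2 and 3. The labels name neither the promoter that drives the recombinase nor the allele that carries YFP, nor the genotype of the controls. A level is given throughout as log2 of the processed signal minus the array's 75th percentile, and a difference as activation minus control on that scale. A gene was called where limma's adjusted p (Benjamini-Hochberg over 18031 genes) was under 0.05.

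The respiratory chain sits in the inner mitochondrial membrane. Complexes I and II feed electrons from NADH and succinate to coenzyme Q, complex III passes them to cytochrome c, complex IV hands them to oxygen, and the proton gradient built on the way drives complex V, the ATP synthase. Most subunits are encoded in the nucleus and imported, and several subunits of complex IV exist as a widespread form and a second form that is known from particular tissues such as muscle, lung or testis.

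The processed signal had a 75th percentile of 756 to 907 on the control arrays and 1348 to 2160 on the activation arrays, a difference of 1.103 in log2, so any comparison between the groups depends on how the arrays are scaled. Marker lists stood apart as well. Summed levels of 20 hepatocyte genes (log2) were 12.62 to 13.00 on control arrays and 6.50 to 8.01 on activation arrays, and 20 of 20 were lower. Those of 15 adipocyte genes were 6.08 to 7.28 against 10.11 to 11.23, with 14 of 15 higher. Those of 13 fibroblast and dermal sheath genes were 7.25 to 7.43 against 8.55 to 9.17, with 11 of 13 higher. On control arrays the median hepatocyte gene lay at percentile 99.1 to 99.4 among tested genes and the median fibroblast and dermal sheath gene at 50.2 to 55.4. The high hepatocyte level on the control arrays and the high adipocyte level on the activation arrays go against a label of sorted dermal sheath cells, so the groups are called by their labels only. None of the genes in these 3 lists was below background on all 7 arrays. The part of these cell types in the differences of the respiratory chain was not tested. In bulk RNA, fewer cells of a type and less RNA per cell cannot be told apart.

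The promoters of 69 of the 85 genes were in the RefSeq promoter table (GRCm38.p6; 250 bases before to 50 after a gene's start), with 74 entries. Motifs of 3 factors known from the promoters of respiratory genes were searched on both strands. The NRF1 motif GCGCANGCG was in 21 of 74 promoters (28.4%), against 6.25% of all 32851 promoters. The ETS motif CCGGAAG was in 17 (23.0%), against 8.86%. The YY1 motif AANATGGC was in 17 (23.0%), against 6.05%. At least 1 of the 3 was in 45 promoters (60.8%), against 18.6% of all promoters, and matches of different motifs shared bases in 0 of the 74. The promoters of the gene with the largest fall, Atp5g1, and of its partner Atp5g2 are shown together with those of Cox8a and Cox8b, the partners of Cox8c, the gene with the largest measured difference above 0. Capitals mark the motif matches.
Atp5g1, chr11:96075582-96075881, minus strand: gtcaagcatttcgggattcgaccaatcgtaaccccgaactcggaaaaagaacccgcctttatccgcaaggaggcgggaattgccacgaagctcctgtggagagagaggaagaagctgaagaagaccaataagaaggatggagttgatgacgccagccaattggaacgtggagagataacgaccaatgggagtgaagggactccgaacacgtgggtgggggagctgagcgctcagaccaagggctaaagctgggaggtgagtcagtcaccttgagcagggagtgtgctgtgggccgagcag
Atp5g2, chr15:102670998-102671297, minus strand: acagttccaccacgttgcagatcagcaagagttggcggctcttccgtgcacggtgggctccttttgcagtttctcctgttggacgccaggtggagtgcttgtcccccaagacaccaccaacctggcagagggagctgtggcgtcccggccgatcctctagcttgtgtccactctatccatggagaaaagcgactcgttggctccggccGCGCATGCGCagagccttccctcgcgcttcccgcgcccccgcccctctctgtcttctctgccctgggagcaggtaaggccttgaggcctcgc
Cox8a, chr19:7217567-7217866, minus strand: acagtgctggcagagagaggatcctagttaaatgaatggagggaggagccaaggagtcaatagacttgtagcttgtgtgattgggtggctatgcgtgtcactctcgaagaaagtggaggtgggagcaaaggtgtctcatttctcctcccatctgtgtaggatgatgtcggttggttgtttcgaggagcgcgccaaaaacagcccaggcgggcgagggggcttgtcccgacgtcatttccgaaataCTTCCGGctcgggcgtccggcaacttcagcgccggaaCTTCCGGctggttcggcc
Cox8b, chr7:140900397-140900696, minus strand: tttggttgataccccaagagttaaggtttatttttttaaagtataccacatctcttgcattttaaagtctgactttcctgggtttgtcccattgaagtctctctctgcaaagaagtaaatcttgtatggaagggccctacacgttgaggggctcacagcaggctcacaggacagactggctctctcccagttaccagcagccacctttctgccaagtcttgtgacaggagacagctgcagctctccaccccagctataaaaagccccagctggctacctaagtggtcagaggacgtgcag
In Atp5g2 the NRF1 motif matched on both strands in overlapping positions, starting 42 and 41 bases before the gene's start. In Cox8a the ETS motif matched 5 bases before the start and again 32 bases after it. The windows of Atp5g1 and Cox8b held no match. Among tested members, 34 of 44 genes with a match were called lower, with a median difference of -0.99, and 16 of 24 genes without one, with a median of -1.01. The remaining 16 tested members had no entry, and 10 of those were called lower. These counts are read against 29% of all genes called lower.

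Relative to the 75th percentile, respiratory chain transcripts were lower on the activation arrays in all 5 complexes. The median over the 84 members was 6.71, 6.78 and 6.62 on control arrays 1 to 3. On activation arrays 1 to 4 it was 5.27, 6.08, 5.83 and 5.24. The groups do not overlap, and every activation array lies below every control array. Of the 84 genes, 60 were called lower and 2 higher, Ndufa4l2 and Cox8c, of which Cox8c passed the filter on dim probes through the activation arrays alone. Over all 18031 genes tested, 29% were lower and 24% higher. The median difference was -1.01, or 2.01-fold lower, against -0.08 over all genes. In 65 of 84 members (77.4%) every activation array lay below every control array, against 32.6% of all genes. In 41 members the called fall was at least 2-fold, against 20.2% of all genes. The same 84 genes did not differ in this way before scaling. Their median processed signal was 79849, 82937 and 89287 on the control arrays and 71806, 91324, 94298 and 81458 on the activation arrays, so the groups overlapped. Their median percentile among all tested genes lay between 96.8 and 97.6 on every array.

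**Figure D1:**
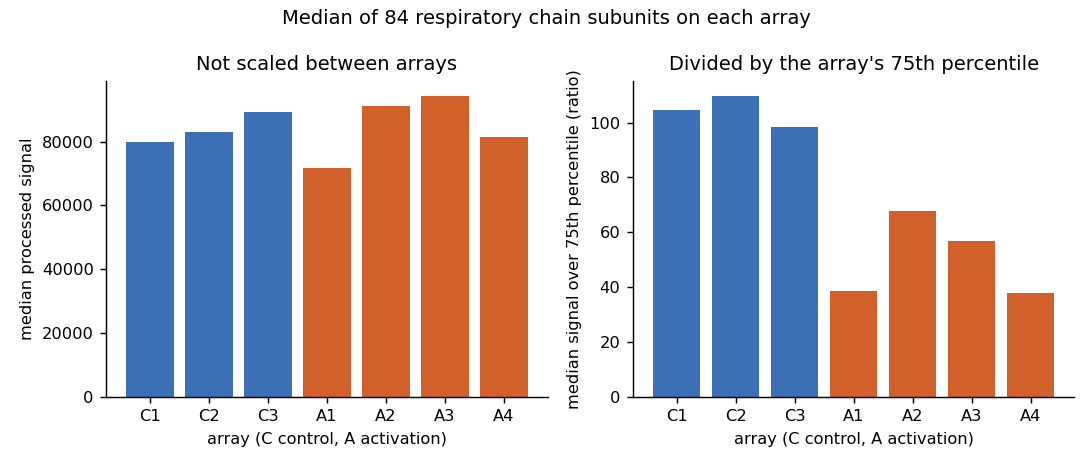
Bars give the median of the 84 tested respiratory chain subunits on each of 3 control arrays (C1 to C3) and 4 activation arrays (A1 to A4), on the left as processed signal and on the right as the ratio to the array's 75th percentile. The unscaled bars of the groups overlap, and after scaling all 4 activation bars lie below all 3 control bars.

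How far the chain fell therefore followed the scaling. Centring each array on the median of the probes that passed the filter on dim probes gave 56 lower members, against 28.1% of all genes. Background correction by normexp gave 58, against 34.8%. Quantile normalization gave 12 lower and 4 higher members with a median of -0.24, against a median of 0.13 over all genes and 23.9% lower and 28.7% higher. The authors' deposited series values gave 17 lower and 7 higher members with a median of -0.17, against 0.11 over all genes and 23.1% lower and 27.3% higher. With no scaling at all, 1 member was lower and 14 were higher, against 8.91% and 55.9% of all genes, and the members' median was 0.10 against 1.02. Under all 6 ways of scaling the members' median lay below that of all genes, by 0.28 to 0.93.

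Called lower under all 5 scaled settings were 11 of 84 members (13.1%), against 21.9% of all genes. They were Ndufa10, Ndufab1, Ndufs6 and Ndufs8 of complex I, Uqcrc1, Uqcrc2 and Uqcrfs1 of complex III, Cox5a and Cox7b of complex IV, and Atp5c1 and Atp5pb of complex V. All 11 also stayed lower when each array was left out in turn. Only Ndufa4l2 was higher under all 5, against 17.6% of all genes. Among these 5 settings no member was called in opposite directions. In all 5, 54 members (64.3%) were below 0, against 44% of all genes. Cox4i2 was called lower with normexp and in the deposited values but higher without scaling.

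**Figure D2:**
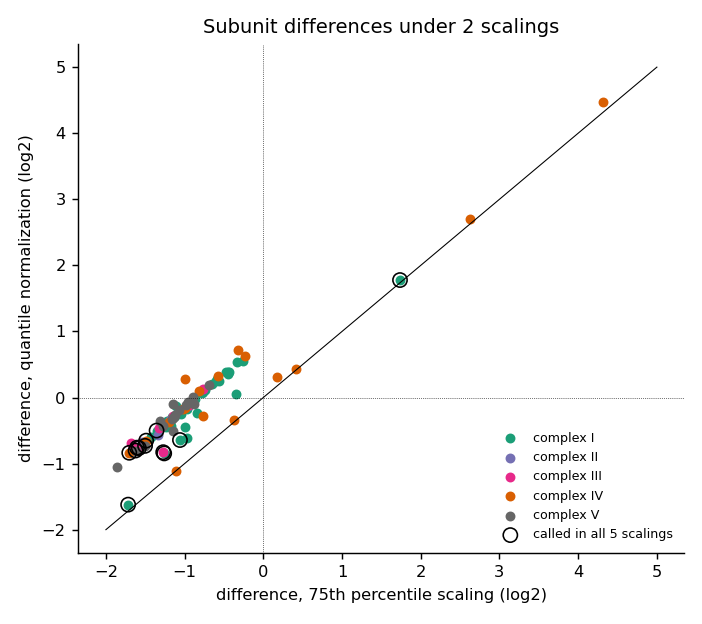
Each point is 1 of the 84 tested subunits, with its activation minus control difference (log2) after 75th percentile scaling on the x axis and after quantile normalization on the y axis, coloured by complex. Most points lie above the line of equality, the members' median is -1.01 on the x axis and -0.24 on the y axis, and rings mark the 12 genes called in the same direction in all 5 scalings.

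The counts of each complex are read against 29% of all genes lower and 24% higher. With quantile normalization 4, 0, 3, 2 and 3 genes of complexes I to V were lower, against 23.9% of all genes. On that scale 1, 0, 0, 3 and 0 were higher, against 28.7%. Complex I, NADH dehydrogenase, had 25 of 38 genes lower and 1 higher, with a median of -0.96 (0.15 without scaling). Of the core subunits, which carry out its electron transfer and ubiquinone reduction, Ndufs1, Ndufs3, Ndufs7, Ndufs8, Ndufv1 and Ndufv2 were called lower, from -1.26 in Ndufs8 to -0.78 in Ndufs7. Of these, Ndufs7 turned to 0.061 with quantile normalization. Without scaling, Ndufv2 and Ndufs7 lay at 0.16 and 0.33. The call of Ndufs7 was lost without control array 1, 2 or 3 or activation array 1, with adjusted p up to 0.100. Ndufv1, the subunit that binds FMN and NADH, was 6.97, 6.93 and 6.90 on the control arrays and 5.51, 6.10, 6.07 and 5.07 on the activation arrays (difference -1.24, SE 0.28, adjusted p 0.00894). Every activation array lay below the controls.

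The largest fall of complex I was that of Ndufab1, the mitochondrial acyl carrier protein, which serves fatty acid synthesis as well as complex I. It was 1.55, 1.79 and 1.90 on the control arrays and -0.20, 0.32, 0.96 and -0.97 on the activation arrays. This was 3.29-fold lower (difference -1.72, SE 0.44, adjusted p 0.0145), and the activation arrays themselves differed by more than the controls did. Ndufa4, counted here with complex I by its symbol but since placed in complex IV, fell by 1.42 (SE 0.31, adjusted p 0.00801). Ndufs6 and Ndufs8 fell by 1.36 and 1.26. In contrast, 12 of the 38 genes were not called. They were accessory subunits, with differences from -0.74 in Ndufc1 to -0.26 in Ndufc2, and 10 of the 12 overlapped between groups. The 2 tested probes of Ndufv3 gave -0.34 and 0.51, so its direction depends on the probe.

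Complex II, succinate dehydrogenase, had 4 of 4 genes lower, with a median of -1.26 (-0.16 without scaling). Sdhb, which carries the iron-sulphur clusters, was 7.48, 7.53 and 7.03 on the control arrays and 5.80, 6.30, 6.09 and 5.04 on the activation arrays, 2.91-fold lower (difference -1.54, SE 0.33, adjusted p 0.00677). The membrane anchors Sdhc and Sdhd fell by 1.34 and 1.19. Sdhc lost its call without control array 2 (adjusted p 0.0522), and Sdhd without control array 2 or 3 or activation array 1 (up to 0.0844). Sdha, the flavoprotein, fell by 0.95 (SE 0.19, adjusted p 0.00533) and lay at 0.15 without scaling. None of the 4 was called under all 5 scalings.

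Complex III, the cytochrome bc1 complex, had 8 of 8 genes lower, with a median of -1.30 (-0.19 without scaling). Uqcrc2, a core protein of the matrix side, was 6.22, 6.42 and 6.37 on the control arrays and 4.87, 4.69, 4.81 and 4.66 on the activation arrays. This was 2.99-fold lower (difference -1.58, SE 0.15, adjusted p 0.000215), with little spread on either side. It was called lower under all 5 scalings, as were Uqcrfs1, the Rieske iron-sulphur protein (difference -1.60, SE 0.28), and Uqcrc1, the other core protein (-1.27, SE 0.24). The small subunit Uqcrq had the largest fall of the complex, 3.20-fold (difference -1.68, adjusted p 0.00542). The smallest was in Uqcrh (-0.77, adjusted p 0.0411), which lay at 0.13 with quantile normalization and 0.33 without scaling, and whose call was lost when any 1 array other than activation array 2 was left out (adjusted p up to 0.125).

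Complex V, the ATP synthase, had 16 of 17 genes lower, with a median of -1.14 (-0.04 without scaling). For all 17 genes the activation arrays lay below the controls without overlap, against 32.6% of all genes. Atp5c1, the gamma subunit of the rotating stalk, was 6.83, 7.04 and 6.65 on the control arrays and 5.30, 5.38, 4.94 and 5.24 on the activation arrays, 3.08-fold lower (difference -1.62, SE 0.18, adjusted p 0.000474). Atp5pb, the peripheral stalk subunit b, fell by 1.50 and was, like Atp5c1, lower under all 5 scalings. The catalytic beta subunit Atp5b fell by 1.15 (SE 0.26, adjusted p 0.00957), and alpha, Atp5a1, by 1.07, which became 0.030 without scaling. Atp5o, the subunit OSCP that joins stalk and head, was the gene not called (difference -0.88, SE 0.34, adjusted p 0.065), and it lay at 0.014 in the deposited values and 0.22 without scaling. The 3 genes Atp5g1, Atp5g2 and Atp5g3 encode the same mature c subunit of the membrane ring and differ in their import sequences. Atp5g1 was 7.14, 7.38 and 6.66 on the control arrays and 4.74, 5.28, 4.81 and 5.98 on the activation arrays, 3.64-fold lower (difference -1.86, SE 0.35, adjusted p 0.0041), the largest fall among all members. Atp5g3 fell by 1.32. Atp5g2 fell by 0.69 (SE 0.22, adjusted p 0.0321), but lay at 0.19 with quantile normalization and 0.41 without scaling. Its call was lost without control array 1 or 2 or activation array 1, 3 or 4 (adjusted p up to 0.116), and that of Atp5a1 without control array 1 or 2 (up to 0.0614).

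Complex IV, cytochrome c oxidase, was mixed, with 7 of 17 genes lower, 1 higher and 9 not called. The 17 include the second isoforms Cox4i2, Cox6a2, Cox6b2, Cox7a1, Cox8b and Cox8c, of which only Cox8c was called. The difference of every other gene of the complex was below 0 on this scale. The median of the complex, -0.77, turned to 0.10 with quantile normalization, 0.17 in the deposited values and 0.33 without scaling. Cox5a, a matrix-side subunit, was 7.55, 7.68 and 7.37 on the control arrays and 5.59, 6.19, 6.10 and 5.44 on the activation arrays, 3.26-fold lower (difference -1.70, SE 0.24, adjusted p 0.00117). Cox7b and Cox7c, small membrane subunits, fell by 1.49 and 1.20. Cox5b and Cox7a2 fell by 1.02 and 1.00, and Cox6a1 by 0.99. Each of these last 3 was above 0 without scaling (0.087, 0.11 and 0.11), and Cox6a1 was above 0 with quantile normalization too (0.28). Cox5b lost its call without control array 1 or 2 (adjusted p up to 0.0629), Cox6a1 without control array 1 (0.0547), and Cox7a2 without control array 1, 2 or 3 or activation array 1 or 4 (up to 0.0923). Cox4i1, the widespread form of the largest nuclear-encoded subunit, did not pass (difference -0.58, SE 0.23, adjusted p 0.0651) and lay at 0.33 with quantile normalization, 0.49 in the deposited values and 0.52 without scaling. Cox8a did not pass either (-0.32, SE 0.25, adjusted p 0.321). Cox8a was called higher with quantile normalization, by 0.72. The 3 tested probes of Cox7a2l, a supercomplex factor, ranged from -0.23 to 0.35. Cox7a2l was called higher with quantile normalization (0.62, limma adjusted p 0.0228) and in the deposited values (0.72, limma adjusted p 0.0133).

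**Figure D3:**
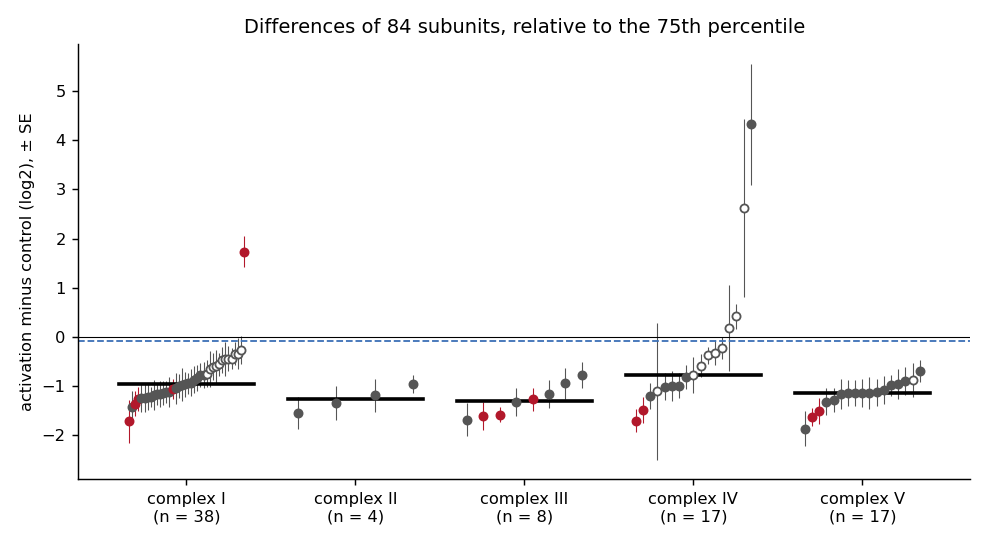
Each point is 1 tested subunit, ordered by its activation minus control difference (log2, relative to the 75th percentile) within its complex, with its standard error. Filled points were called, red points were called in the same direction in all 5 scalings, black bars are the medians of the complexes (-0.96, -1.26, -1.30, -0.77 and -1.14 from I to V, and above 0 without scaling for I and IV and also with quantile normalization for IV) and the dashed line is the median over all genes (-0.08).

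Of the 8 second isoforms, 7 were tested, and 5 of those were not called. The other 2, Ndufa4l2 and Cox8c, were higher, a share near the 24% of all genes, and 0 were lower (limma; also 0 at an unadjusted p under 0.05). Of the remaining 77 members, 60 were lower, against 29% of all genes, and 0 higher (also 0 at an unadjusted p under 0.05). Whether the second isoforms differ from the rest as a group was not tested. Their values had a median SD within the activation group of 1.36, against 0.45 over all members.

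Ndufa4l2, a paralogue of Ndufa4 known as a target of hypoxia signalling, was the clearest rise. It was -0.72, -0.57 and -1.01 on the control arrays and 1.13, 1.31, 1.25 and 0.19 on the activation arrays (difference 1.74, SE 0.31, adjusted p 0.00331). Activation array 4 lay well below the other 3 but above every control. Within arrays, the log2 ratio of Ndufa4l2 to Ndufa4, which does not depend on a single scaling factor, was higher in activation by 3.16. The groups did not overlap, and the exact two-sided permutation test gave p = 0.0571, the smallest that 3 against 4 arrays allow.

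Cox8c, known from testis, was -5.62, -7.91 and -6.77 on the control arrays and -0.82, -3.36, -5.23 and -0.39 on the activation arrays. It was above background on 1 of 3 control arrays and on all 4 activation arrays, so it passed the filter only through the group where it is high, and its measured difference of 4.32 (SE 1.23, adjusted p 0.0228) rests on control values that are mostly not well above background. Its call was lost without control array 2, control array 3 or activation array 1 (adjusted p 0.0821, 0.061 and 0.0556), and with normexp, where the difference was 1.60. The summed level of spermatid markers was 0.10 to 0.31 on the control arrays and 3.12 to 7.55 on the activation arrays. It was highest on activation array 4, where Cox8c was also highest. Of 9 spermatid markers tested, 5 were higher and 0 lower, against 24% and 29% of all genes. Kidney tubule markers had a summed level of 0.10 to 0.36 on the control arrays and 2.33 to 5.14 on the activation arrays. That level too was highest on activation array 4, with 2 of 6 tested genes higher and 2 lower. The part of either list in the result was not tested.

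The forms known from muscle and brown fat differed between arrays of the same group. Cox8b was 2.27, -3.60 and -1.20 on the control arrays and 0.12, 4.05, 4.04 and -1.09 on the activation arrays (difference 2.62, SE 1.80, adjusted p 0.256). Cox7a1 was 1.93, 0.98 and 0.96 on the control arrays and 0.37, 2.62, 3.15 and -0.27 on the activation arrays (difference 0.17, SE 0.88). Both were highest on activation arrays 2 and 3. This order of the activation arrays was shared by 74 of 84 members, against 29.9% of all genes. Cox6a2, the muscle form of subunit VIa, was 2.30, -3.21 and -2.23 on the control arrays and -2.98, -0.95, -1.05 and -3.63 on the activation arrays (difference -1.11, SE 1.39). All 3 were high on control array 1 compared with the other controls. The summed level of 14 striated muscle markers was 6.07 on that array, 1.06 and 1.28 on the other controls and 1.55 to 2.50 on the activation arrays. Of 10 brown adipocyte markers, 5 had both activation arrays 2 and 3 above arrays 1 and 4, against 29.9% of all genes and 88.1% of members. One of these, Cidea, was 0.49, -3.88 and 5.37 on the control arrays and 0.15, 3.22, 3.01 and -2.60 on the activation arrays. The other 5 markers, Prdm16 among them, were not ordered in this way. The part of these cells in the isoform values was not tested. Cox4i2, a form known from lung, and Cox6b2, known from testis, did not pass, with differences of -0.37 and 0.42. Cox4i2 was called lower with normexp (-0.46, adjusted p 0.0457) and in the deposited values (-0.46, adjusted p 0.0386), and higher without scaling (0.73, adjusted p 0.0216).

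**Figure D4:**
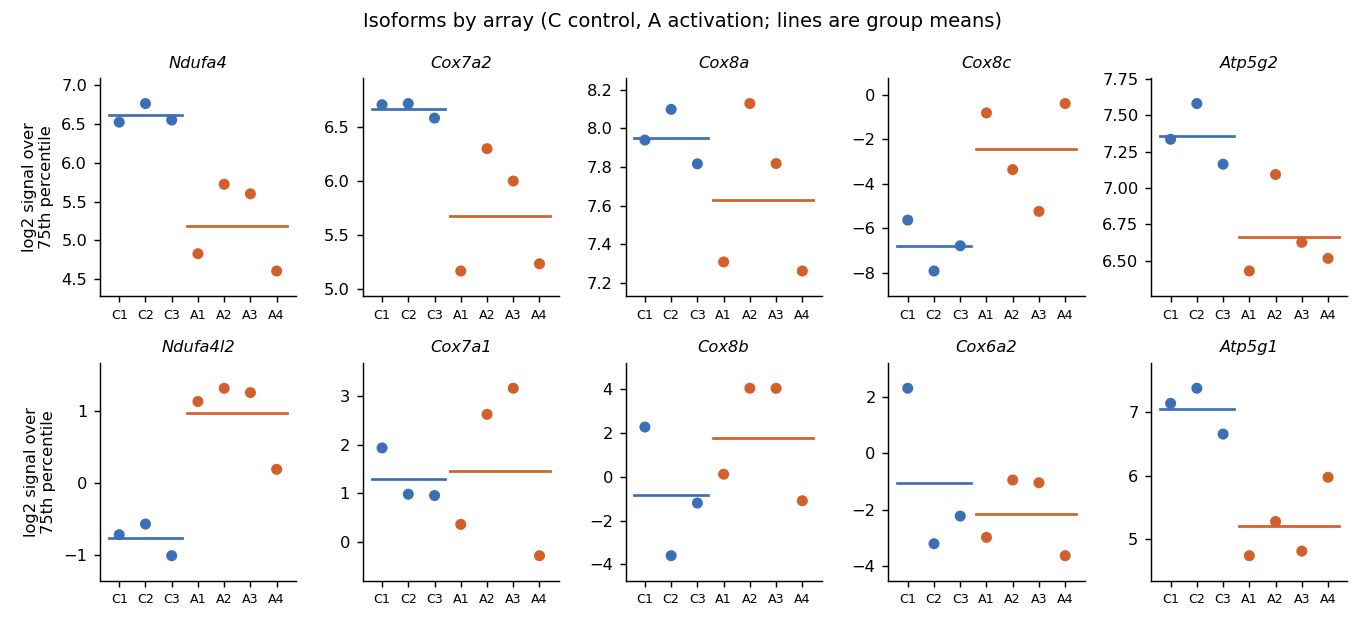
Log2 signal over the array's 75th percentile for isoforms on 3 control arrays (C1 to C3, blue) and 4 activation arrays (A1 to A4, orange), with lines at the group means. Cox8c and Cox6a2 share a column but are not a pair of isoforms. Cox8c belongs with Cox8a, and Cox6a1, the partner of Cox6a2, is not shown. The axes differ between panels and levels of different genes are not comparable. Ndufa4l2 is higher on every activation array while Ndufa4 is lower. Cox8b and Cox7a1 are highest on activation arrays 2 and 3, an order of the activation arrays found in 74 of 84 members.

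In all, 9 isoform pairs were compared by their within-array log2 ratio. For 5 pairs the groups did not overlap and the exact permutation p was 0.0571, or 0.103 after adjustment over the 9 pairs, so none could pass 0.05 in this design. Besides Ndufa4l2 over Ndufa4, these were Cox8c over Cox8a, with Cox8c not above background on 2 of 3 control arrays, Cox6b2 over Cox6b1 (higher by 1.19), Atp5g1 over Atp5g2 (change of -1.17) and Atp5g3 over Atp5g2 (change of -0.62). The ratio of Cox4i2 to Cox4i1 changed by 0.21 with overlapping groups (exact p = 0.286).

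The members moved together from array to array. The median SD of a member was 0.15 within the control group and 0.45 within the activation group, against 0.23 and 0.40 over all genes. Activation arrays 1 and 4, each from 1 mouse, lay below both pooled arrays 2 and 3 for 74 of 84 members (88.1%), against 29.9% of all genes. Arrays 1 and 4 also had higher 75th percentiles, 1858 and 2160, against 1348 and 1659 on arrays 2 and 3. On them 81.0% and 82.0% of probes were above background, against 68.1% and 70.0%. The part of these features in the split was not tested. Without arrays 1 and 4 the members' median was -0.68 with 47 lower, against 29.0% of all genes. Without arrays 2 and 3 it was -1.40 with 69 lower, against 26.9% of all genes. Array 2 was the highest activation array for 71 members and array 4 the lowest for 52. Arrays also sat in 2 rows of the slide. Within row 1 (control arrays 1 and 2, activation array 1) the members' median was -1.36, and within row 2 (control array 3, activation arrays 2 to 4) it was -0.82. Each row has 1 array on one side, so calls within a row carry no replicate check on that side and are not read as results. With the row as a block 50 were lower and 2 higher, against 24.2% and 19.7% of all genes. Leaving out control array 2 lowered the count of lower members to 37, against 22.8% of all genes. Leaving out control array 1 lowered it to 39, against 22.2% of all genes. Of the 60 lower members, 35 stayed lower whichever array was left out.

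Lists of genes that build and serve the chain had medians from -0.94 to -0.53 on the 75th percentile scale, and in several of them most genes did not pass. Their counts are read against 29% of all genes lower, 24% higher and 21.9% lower under all 5 scalings. With quantile normalization the medians were -0.67 and -0.59 for complex I and complex IV assembly factors, -0.48 each for coenzyme Q synthesis and biogenesis regulators, -0.27 for mitochondrial ribosomal proteins, -0.17 for the assembly factors of complexes II, III and V, -0.09 for the tricarboxylic acid cycle and -0.01 for the carriers, against -0.24 for the subunits. Among complex I assembly factors 9 of 15 were lower and 0 higher (also 0 higher unadjusted), and their median was -0.94. Ndufaf6 and Ndufaf1 fell by 2.22 and 1.44, and 8 of the 15 (53.3%) were lower under all 5 scalings. Among complex IV assembly factors 14 of 23 were lower and 0 higher (also 0 higher unadjusted), with a median of -0.89, and 10 were lower under all 5 scalings. Sco2, a copper chaperone, was 4.60, 4.21 and 4.33 on the control arrays and 1.14, 1.87, 1.17 and 0.38 on the activation arrays (difference -3.24, SE 0.34). Lrpprc, which stabilises mitochondrial mRNAs, fell by 2.19 (SE 0.19). On this scale both fell by more than any subunit did. Of 12 assembly factors of complexes II, III and V, 5 were lower and 0 higher (also 0 higher unadjusted), with a median of -0.53, and 2 (16.7%) were lower under all 5 scalings. Bcs1l, which inserts the Rieske protein Uqcrfs1 into complex III, fell by 2.05 (SE 0.16).

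The tricarboxylic acid cycle, which supplies NADH and succinate, had 6 of 14 genes lower and 0 higher (1 higher unadjusted), and their median was -0.77. With quantile normalization 4 were lower and 3 higher, and in the deposited values 4 lower and 4 higher. Suclg2, the GTP-forming beta subunit of succinyl-CoA ligase, was 3.59, 3.54 and 3.65 on the control arrays and 0.72, 0.20, 0.82 and 0.65 on the activation arrays (difference -3.00, SE 0.19). Fh1, fumarase, fell by 2.11. Of 13 coenzyme Q genes 6 were lower and 0 higher (also 0 higher unadjusted), with a median of -0.64. Coq8a and Coq10b fell by 2.87 and 2.35. Of the 2 cytochrome genes tested, Cyc1, the cytochrome c1 of complex III, fell by 1.17 (SE 0.28, adjusted p 0.0108). Cycs, cytochrome c itself, had a difference of -0.56 (SE 0.29, adjusted p 0.143). Atpif1, the inhibitor of complex V, had a difference of 0.79 (SE 0.31, adjusted p 0.0675), and was called higher with quantile normalization, by 1.52.

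Of 14 mitochondrial carriers tested, 8 were lower and 2 higher, with a median of -0.77 that turned to 0.016 in the deposited values. The 2 higher were Slc25a4 and Ucp1, the uncoupling protein of brown fat. Ucp1 was above background on 0 of 3 control and 4 of 4 activation arrays, so it passed the filter only through the group where it is high. Only Slc25a4 was higher under all 5 scalings, and with normexp it was the only carrier called higher. Slc25a4, the ADP/ATP carrier known from heart and muscle, was 4.58, 3.83 and 3.89 on the control arrays and 6.23, 6.68, 6.50 and 6.00 on the activation arrays (difference 2.25, SE 0.26, adjusted p 0.000553). Slc25a5, its more widespread relative, was 5.64, 5.70 and 5.62 on the control arrays and 3.82, 4.03, 3.91 and 3.72 on the activation arrays (difference -1.78, SE 0.15). The 2 ADP/ATP carriers thus moved in opposite directions, under all 5 scalings. Slc25a13, the aspartate/glutamate carrier known from liver, fell by 5.28.

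Of 24 regulators of mitochondrial biogenesis 12 were lower and 3 higher, with a median of -0.75. Tfam and Tfb1m, which act on mitochondrial DNA transcription, fell by 1.33 and 1.39. Ppara, a nuclear receptor of fatty acid oxidation with a high level in liver, fell by 5.47. Prdm16, a factor of brown and beige fat, rose by 2.79. Of the 10 brown adipocyte markers, Prdm16 and Ucp1 among them, 4 were higher and 3 lower, against 24% and 29% of all genes. Under all 5 scalings 2 were higher and 3 lower, against 17.6% and 21.9% of all genes. The summed level of the 10 markers was 7.05 to 7.33 on the control arrays and 1.22 to 3.56 on the activation arrays. Of 77 mitochondrial ribosomal proteins 45 were lower and 1 higher, with a median of -0.75, and 24 were lower under all 5 scalings. Mrps6 was the one that rose, by 2.15. Without scaling, the medians of these pathway lists, from the assembly factors to the ribosomal proteins, all lay above 0, between 0.16 and 0.57, and the hepatocyte and adipocyte lists stood apart between the same groups as given above.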

How the data were processed

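RNA from sorted cells was amplified, labelled with Cy3 and hybridised to 7 one-colour Agilent SurePrint G3 mouse 8x60K arrays, 3 control and 4 activation, on 1 slide. Per the file headers, the authors extracted intensities with Agilent Feature Extraction 10.7.1.1, and its processed signal is background-subtracted. The authors also deposited a series table of log2 values, whose column medians are 7.41 on each array; set against values made from the scanner files by normexp background correction and quantile normalization, each column gave r of 0.999851 or more, while the normalization itself is not given in the sources used here. The deposited files also hold a flag for each spot that is well above background.

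Control and outlier spots were dropped, and repeated spots of a probe were averaged. Levels are log2 of the processed signal minus the array's 75th percentile. A probe's gene was taken from its accession through RefSeq, which named 28026 of 55681 probes. The tested probe of a gene was the one with the highest mean. A difference between groups compares a probe with itself. Percentiles, summed marker levels and isoform ratios set different probes side by side within an array. Groups were compared with limma 3.58.1 in R 4.3.3. Whether probes tell members from pseudogenes and near-identical copies was not checked. The position written inside the file differed from that in its name on 4 arrays, and the slide rows follow the former. Normexp used the median spot signal with an offset of 50.

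The labels call the arrays biological replicates. The members and the lists were chosen with earlier results of these data known. The genes named with values are the core subunits (1 is not reported here), the isoform pairs, the largest changes of each complex, and the genes of each pathway list with the smallest p; a few others (Ndufa10, Ndufc1, Ndufc2, Uqcrh, Ndufv3, Cox7a2l and Ucp1) were named after their values were seen. Same-numbered arrays did not deviate together (r of -0.01 to 0.02), so the groups were not paired. The number of arrays limits the precision. Alternatives were other scalings, filters, probe rules, blocks and each array left out.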

Additional observations from a re-analysis of the deposited data

Results flagged for a closer look

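In 4 of 99 activation groups examined, 1 array lay far from the other 3; chance alone flags about 1 group in 20. Ndufa4l2 stood at 0.19 on activation array 4, against 1.13 to 1.31 on the other activation arrays. Coq10a, of coenzyme Q synthesis, was 0.28 on activation array 3, against 0.17 to 0.18. The macrophage gene Csf1r was 4.83 on activation array 4, against 5.77 to 5.90. Pvalb, of the muscle list, was -1.98 on activation array 1, against -1.11 to -1.05.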

How the results depend on the processing

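Genes named after their values were seen are left out of the gene counts and turns given here. Among the other named subunits, 762 values under an alternative kept their side of the threshold (746 with the same sign, 16 of uncalled genes with the other). Of the rest, 128 lost the call, 15 gained it and 18, of 10 genes, turned sign with a call in at least 1 of the fits. The main counts were 60 lower and 2 higher, and the median -1.01, or -0.93 relative to all genes. Quantile normalization gave 12 lower, 4 higher and -0.24 (-0.37 relative to all genes), the deposited values 17, 7 and -0.17 (-0.28), and no scaling, added after seeing the data, 1, 14 and 0.10. Higher genes numbered 1 with normexp, above background on all 7 arrays, or on arrays of 1 mouse; there the median was -1.47 (-1.36). Within slide row 1 the median was -1.36; within row 2 it was -0.82 and 0 were lower and 0 higher, each row having 1 array on one side. Calls within a row have no replicate check on the side with 1 array, and within row 2 few of all genes were called either. The counts of 0 there therefore cannot show whether the members fell, and counts within row 1 are left out. Without activation arrays 1 and 4 (added) the members' median was -0.68, and without 2 and 3 (added) -1.40 (-1.30). Leaving out 1 array gave 37 to 64 lower and 1 to 2 higher, a median of -1.17 to -0.87, and -1.08 to -0.79 relative to all genes. Over all genes these fits called 22.2% to 30.9% lower and 18.0% to 27.3% higher. A replicate block, although the numbers do not pair the arrays, gave 52 lower, 2 higher and a median of -0.87. Over all genes it called 27.6% lower and 24.9% higher. Such turns came with quantile normalization in Atp5g2 (0.19), Cox6a1 (0.28), Cox8a (0.72) and Ndufs7 (0.061), in the deposited values in the same genes (0.19, 0.37, 0.84 and 0.066), and with the mean of probes in Ndufaf5 (0.13). Without scaling, which adds 1.103 to each difference, they came in Atp5a1 (0.030), Atp5g2 (0.41), Atpaf1 (0.33), Coq10a (0.23), Cox4i2 (0.73), Cox5b (0.087), Cox6a1 (0.11), Cox7a2 (0.11), Cox8a (0.78), Csf1r (0.87), Dlst (0.023), Ndufs7 (0.33), Ndufv2 (0.16), Sdha (0.15), Ttc19 (0.27) and Uqcc1 (0.17). Uncalled on these scales, Cox4i1 turned to 0.33 with quantile normalization, 0.49 in the deposited values and 0.52 without scaling, Atp5o to 0.014 in the deposited values and 0.22 without scaling, and Cox6b1 to 0.33 without scaling. The cause of the other changes was not tested.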
